A study of Arabidopsis thaliana with 18 samples.

Results

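Salicylic acid (SA) was compared with its silwet carrier 4 h after treatment on 6 ATH1 GeneChip arrays, 3 per group, out of 18 arrays of Arabidopsis thaliana plants of the natural accession Kin-0. The SA group had received SA at 0.30 mM dissolved with silwet, a surfactant that lets a liquid spread over plant surfaces, at 0.02%, and the control group silwet alone at the same 0.02%, so silwet was common to both groups and is the background of every value. The 6 arrays were chosen by their source labels, treatment and time, and were paired by the replicate number in their titles, 1 to 3. The other 12 arrays held the same treatments at 28 and 52 h. The labels name neither a tissue, nor a plant age, nor the way of application, and do not say what plants of 1 replicate number shared.

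SA is a hormone of plant immunity. It is perceived by the NPR receptors, which act with TGA transcription factors and bring about a large change in transcription. Plants limit the hormone by conjugation to sugars, by hydroxylation and by methylation. The response is known to include WRKY transcription factors, enzymes that make or inactivate SA and N-hydroxypipecolic acid, another immune signal, and proteins of the endoplasmic reticulum (ER), through which defence proteins are secreted. SA is also known to oppose jasmonate, the hormone of the response to wounding and chewing insects.

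The deposited values were MAS5 signals, a linear brightness per probe set, with a median of 26.7 to 34.3 on the 6 arrays. After the filter on dim signals 15216 of 22810 probe sets were tested, and 8307 of these carried exactly 1 gene name. Named probe sets were few for the genes usually used to follow SA, and PR1, PR2 and PR5 had none, so they were not analysed here. The 5 measured photosynthesis genes, which mark green tissue, were bright and summed to 10761 to 13846 on the silwet arrays and 9605 to 14213 on the SA arrays, with none called. PYK10, the measured root marker, lay between 141 and 284 after silwet and between 58.5 and 167 after SA (log2 change -0.98, SE 0.40, not called). FMA, a guard cell regulator, lay between 46.2 and 59.9 and between 33.9 and 42.6, and the flower, seed and vascular lists had no member with a named probe set. On these arrays fewer cells of a type and less RNA per cell cannot be told apart.

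At 4 h SA changed 1011 probe sets in both directions, 455 higher and 556 lower than silwet, which was 6.64% of those tested (2.99% higher and 3.65% lower). Among probe sets with a gene name the strongest rises were in an AAA-type ATPase (AT3G28510), the SA and N-hydroxypipecolate glucosyltransferase UGT76B1, a legume lectin-like protein (AT5G03350) and the scopoletin enzyme F6'H1. The falls included AT5G62360, an invertase and pectin methylesterase inhibitor family protein, and the sucrose phosphate synthase ATSPS4F. A call is limma's adjusted p under 0.05 (Benjamini-Hochberg over all probe sets tested) in a fit that takes out differences between replicate numbers (a replicate block). Of the calls 451 were at least 2-fold (2.96% of those tested) and 36 at least 4-fold, with a median absolute log2 change of 0.95 against 0.29 over all probe sets. The 3 SA arrays lay wholly above or below the 3 silwet arrays for 785 of the 1011, against 18.0% of all probe sets tested. The calls were made on these same arrays, so that share is a description.

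**Figure D1:**
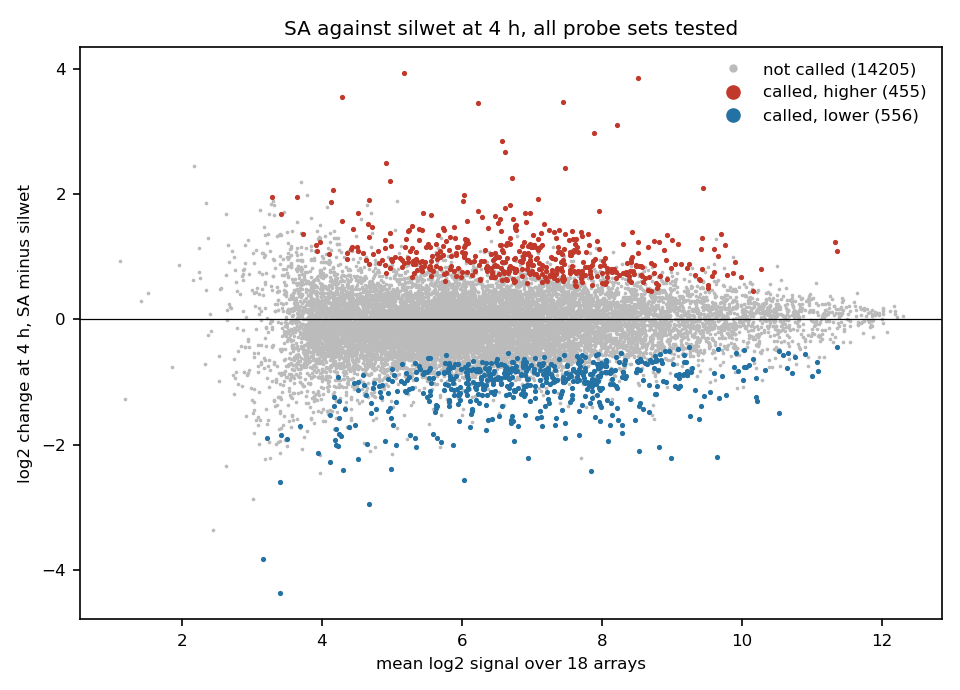
Log2 change at 4 h, SA minus silwet (vertical axis), against the mean log2 MAS5 signal over 18 arrays (horizontal axis), 1 point per probe set. The 455 probe sets called higher and the 556 called lower are coloured, and both lie over the whole range of signal.

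The number of calls rested on the fit. Without the replicate block 121 probe sets passed (0.795%), 72 higher and 49 lower. With silwet replicate 1 left out 255 passed, with silwet replicate 2 left out 371, with SA replicate 2 left out 361 and with SA replicate 3 left out 483, while 805 and 1041 passed without silwet replicate 3 and SA replicate 1. SA replicate 2 had the highest ratio of 3' to 5' control signal, a measure of RNA integrity, at 2.09 on the log2 scale against 0.80 to 1.63 on the other arrays of the series. With this ratio as a covariate 713 probe sets passed, of which 622 were among the 1011. The split into higher and lower moved with scaling, since 45.0% of calls were higher as reported, 51.7% after quantile normalization and 68.6% after median centring, which raised the median change of all probe sets from -0.09 to 0.06.

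**Figure D2:**
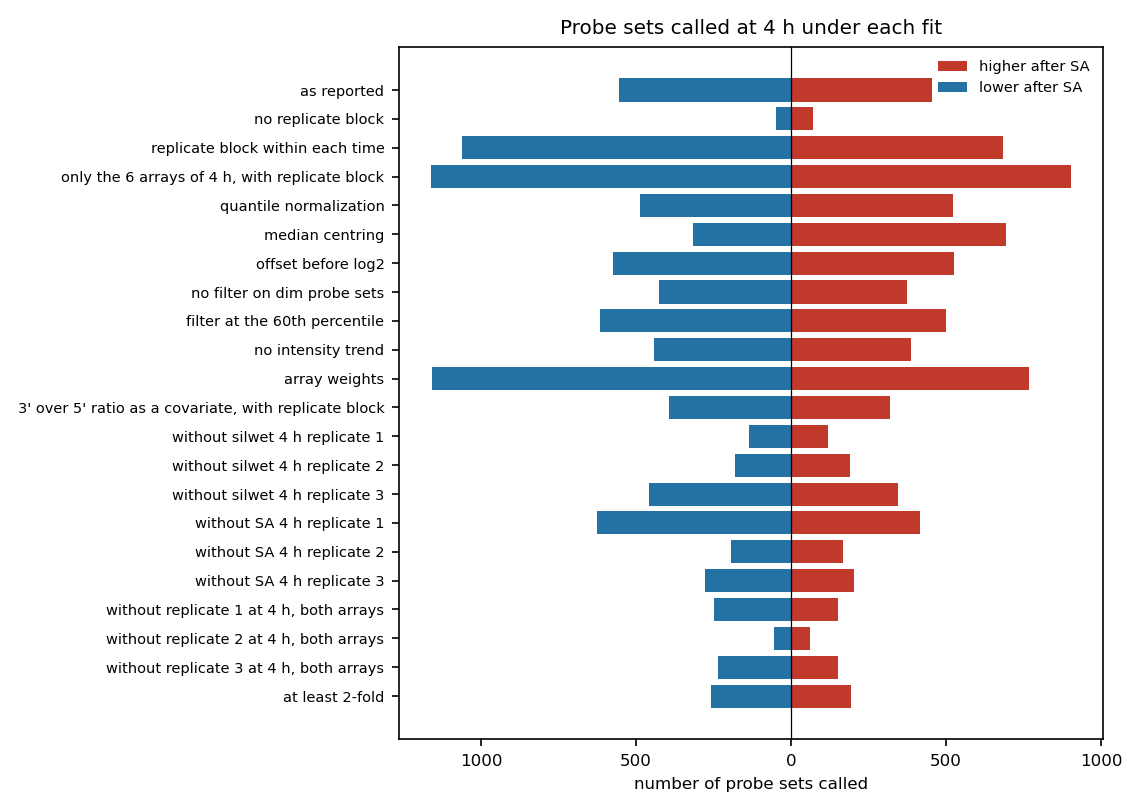
Number of probe sets called at 4 h (horizontal axis), higher to the right and lower to the left of 0, under the reported fit and each alternative (vertical axis). The count is 1011 as reported, 121 without the replicate block and 118 with both replicate 2 arrays left out.

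Among the 15 named genes with the largest rises, AT3G28510, an AAA-type ATPase, went from near the dim level to a clear signal. Its silwet arrays read 14.2, 12.0 and 25.8 in replicates 1 to 3, and its SA arrays 141, 191 and 266. All 3 SA arrays lay above all silwet arrays, 2 of which were dim, meaning below the 40th percentile of their array (log2 change 3.55, SE 0.45, adjusted p = 0.000606). UGT76B1, which glucosylates SA and N-hydroxypipecolic acid, read 91.8, 205 and 322.2 after silwet and 1598, 2378 and 2116 after SA. Here too the groups were apart, and the silwet value of replicate 3 was the highest of its group (log2 change 3.46, SE 0.58, adjusted p = 0.00337). AT5G03350, a legume lectin-like protein, read 388, 214 and 294 and then 2167, 3102 and 2307, with no overlap (log2 change 3.10, SE 0.38). AT3G13610, the F6'H1 hydroxylase that makes the precursor of the coumarin scopoletin, read 62.9, 81.2 and 141 after silwet and 393, 851 and 564 after SA. The lowest SA array of F6'H1 was above its highest silwet array (log2 change 2.68, SE 0.40, adjusted p = 0.0017).

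The next genes rose by 2.10 to 2.42 on the log2 scale. AT5G44570 read 93.9, 170.5 and 229 after silwet and 893, 913 and 692 after SA (log2 change 2.42, SE 0.31). AT4G32870, a polyketide cyclase and lipid transport family protein, read 94.2, 98.6 and 115 and 551, 520.2 and 412 (log2 change 2.26, SE 0.27). Its silwet arrays lay close together and its SA arrays well above them. AT3G29240 was the brightest of the 15, with 617, 650.3 and 1187 after silwet and 2783, 3838 and 3537 after SA (log2 change 2.10, SE 0.23, adjusted p = 0.00016). AT1G15790 read 20.8, 19.0 and 30.2 and 112, 96.0 and 108, and 1 of its silwet arrays was dim (log2 change 2.20, SE 0.32). Groups did not overlap in any of these 4 genes.

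The rest of the 15 were AT3G62780, a C2 domain protein (log2 change 1.99), AT4G19370 (1.90), the methyltransferase AT4G22530 (1.89), AT5G46230 (1.77), NRT2.5, AT5G65530 and GH3.3. NRT2.5, a high-affinity nitrate transporter, read 8.48, 13.2 and 10.0 after silwet, all dim, and 38.3, 34.2 and 49.3 after SA, which makes it at least 2.11-fold higher. It was dim on most later arrays as well and passed the filter only with the help of the SA arrays of 4 h, so its rise is a description. AT5G65530, a receptor-like cytosolic kinase, was also dim on all silwet arrays (10.3, 12.2 and 5.45) and read 31.2, 35.5 and 30.7 after SA, at least 1.70-fold higher. GH3.3, which conjugates the auxin indole-3-acetic acid to amino acids, varied widely between replicates. It read 45.8, 168 and 289 after silwet and 155, 782 and 817 after SA, so the groups overlapped while every pair rose (log2 change 1.82, SE 0.35). With arrays written by group and replicate number, calls were lost for NRT2.5 whichever single array was left out (adjusted p up to 0.0981), for AT4G22530 without silwet 1 or SA 2 (up to 0.0967), for GH3.3 without silwet 1 (0.0576) and for AT5G46230 without silwet 1, silwet 3, SA 2 or SA 3 (up to 0.167).

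**Figure D3:**
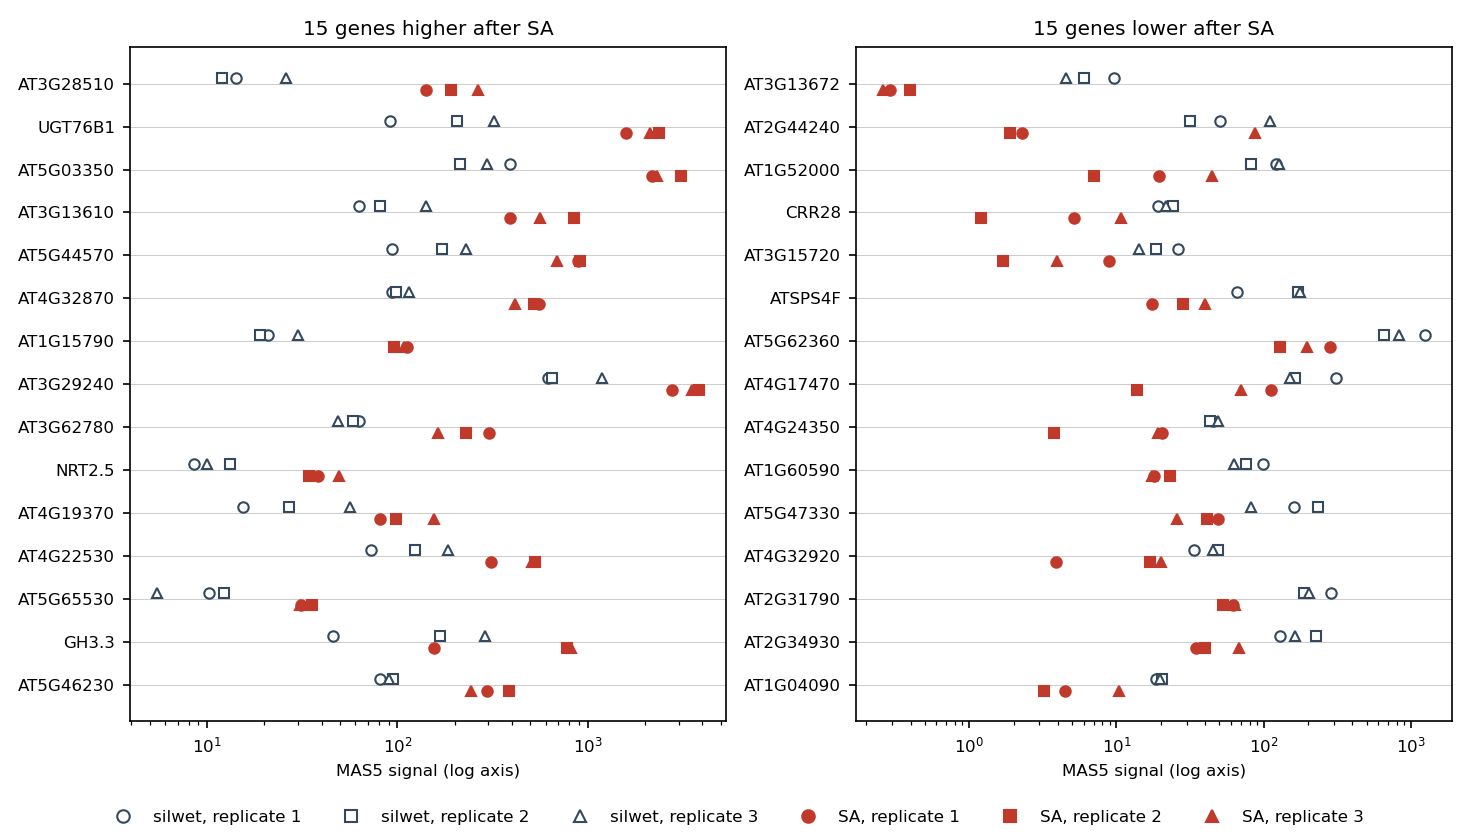
MAS5 signal on each of the 6 arrays at 4 h (horizontal log axis) for the 15 named genes with the largest rise and the 15 with the largest fall (vertical axis). Open symbols are silwet and filled symbols SA, with 1 symbol shape per replicate, and the groups overlap for GH3.3 and AT2G44240.

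Among the 15 named genes with the largest falls, AT5G62360 had the brightest signal. AT5G62360, an invertase and pectin methylesterase inhibitor family protein, read 1240.5, 656 and 831 after silwet and 279, 128 and 197 after SA. Every SA array lay below every silwet array by a wide margin (log2 change -2.19, SE 0.28, adjusted p = 0.000606). AT1G60590, a pectin lyase-like protein, read 99.0, 75.3 and 62.6 and 18.0, 23.0 and 17.4, without overlap and with 1 SA array dim (log2 change -2.01, SE 0.31). ATSPS4F, a sucrose phosphate synthase, read 65.7, 172 and 176 after silwet and 17.5, 28.2 and 39.8 after SA. The silwet array of replicate 1 was low, and still above all SA arrays (log2 change -2.22, SE 0.37). AT3G15720, another pectin lyase-like protein, was faint, with 26.0, 18.4 and 14.2 after silwet and 8.91, 1.71 and 3.92 after SA. All its SA arrays were dim, and so were silwet replicates 2 and 3. Its bound of at least 1.08-fold lower is carried by silwet replicate 1 alone, and the size of its fall is uncertain.

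Others of the 15 are named one by one. AT1G52000, a jacalin-related lectin, read 120.5, 81.8 and 126 after silwet and 19.4, 7.07 and 44.3 after SA, where replicate 2 was dim (log2 change -2.56, SE 0.37). AT2G44240 read 50.1, 31.4 and 111 after silwet and 2.29, 1.88 and 87.3 after SA. Its SA arrays were dim in replicates 1 and 2 and overlapped the silwet arrays in replicate 3, so the size of its fall is uncertain (adjusted p = 0.0433). AT2G31790, the glucosyltransferase UGT74C1 of glucosinolate synthesis, read 285, 187 and 203 and 62.2, 52.7 and 63.5, with narrow groups far apart (log2 change -1.90, SE 0.28). AT5G47330 and AT4G17470, both of the palmitoyl protein thioesterase family, had log2 changes of -1.96 and -2.04. AT4G24350 (-2.01), AT4G32920 (-1.94) and AT2G34930 (-1.89), the last of the disease resistance leucine-rich repeat family, fell as well. SA arrays were dim for AT4G17470 and AT4G24350 (1 each) and for AT4G32920 (2), which leaves the size of those falls uncertain.

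CRR28, a pentatricopeptide repeat protein of chloroplast RNA editing, read 19.1, 24.3 and 21.6 after silwet and was dim on all SA arrays, at least 1.23-fold lower. AT1G04090 was likewise dim on all SA arrays and at least 1.12-fold lower. It was dim on most later arrays as well and passed the filter only with the help of the silwet arrays of 4 h. Its fall is therefore a description. AT3G13672 passed the test but was dim on all 6 arrays, with 9.64, 6.05 and 4.57 after silwet and 0.290, 0.399 and 0.260 after SA, and no fold is given. Of the 30 genes, 19 kept their call whichever single array was left out, and 14 kept it without the replicate block. These were the first 9 rises named above, AT5G65530, AT5G62360, AT1G60590, AT2G31790 and AT3G13672. Of these AT3G13672, dim on all 6 arrays, lost its call when the 6 arrays of 4 h were fitted alone (limma adjusted p = 0.425). Among the falls the call was lost for AT2G44240 without any array but SA 3 (adjusted p up to 0.203), for CRR28 without silwet 1, silwet 2 or SA 2 (up to 0.0935), for AT3G15720 without silwet 1, silwet 2, SA 2 or SA 3 (up to 0.123), for AT4G17470 without any array but silwet 3 (up to 0.182), for AT4G24350 without silwet 1 or 2 (up to 0.0631), for AT2G34930 without silwet 2, silwet 3, SA 1 or SA 2 (up to 0.136) and for AT1G04090 without any array but SA 3 (up to 0.155).

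Several genes of SA signalling rose, though few of them had a named probe set. Over 27 gene lists with 472 genes in all, 65 genes were tested, of which 8 were called higher and 6 lower, beside 2.99% and 3.65% of all probe sets tested. The lists were chosen with earlier results of these data known, so these counts are a description. GRX480, a glutaredoxin that binds TGA factors and is induced by SA, was the only tested member of the receptor and cofactor list. It read 200.2, 188 and 408 after silwet and 856, 568 and 618 after SA, with no overlap although silwet replicate 3 was high (log2 change 1.43, SE 0.28, adjusted p = 0.00893). WRKY53, a transcription factor of defence and leaf senescence, read 162, 181 and 536 and 753, 847 and 846 (log2 change 1.70, SE 0.45). Its SA arrays were nearly equal, and silwet replicate 3 was again the highest control. WRKY6, the other WRKY factor tested, had a log2 change of 0.13 (SE 0.34) and was not called.

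In SA synthesis and turnover, AT3G48080, the immune regulator EDS1B, was dim on the silwet arrays (10.7, 17.4 and 17.9) and read 31.9, 33.0 and 31.2 after SA, at least 1.68-fold higher. AT3G48080 was also dim on every array of 28 and 52 h, so it passed the filter only through the SA arrays of 4 h. Its rise is therefore a description. SAG101, a partner of EDS1, had a log2 change of 0.15 (SE 0.25) and was not called. AT5G52810, the SARD4 reductase of pipecolate synthesis, read 132, 167 and 173 after silwet and 523, 449 and 382 after SA. All its SA arrays were more than 2-fold above the silwet arrays (log2 change 1.52, SE 0.23, adjusted p = 0.00175). With UGT76B1, both tested genes of the N-hydroxypipecolate list were called higher, beside 2.99% of all probe sets tested. BSMT1, which methylates SA and benzoate, read 83.2, 45.3 and 73.8 after silwet and 8.15, 11.0 and 65.0 after SA, dim on SA replicates 1 and 2 and within the silwet range on SA replicate 3 (not called, adjusted p = 0.201). Without the replicate block UGT76B1 and AT5G52810 kept their call, and GRX480, WRKY53 and AT3G48080 lost it. With arrays left out it was lost for GRX480 without silwet 1 (adjusted p = 0.0654), for WRKY53 without silwet 1, silwet 2, SA 2 or SA 3 (up to 0.208) and for AT3G48080 whichever single array was left out (up to 0.197).

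Several genes of the ER rose by small amounts. On the protein folding list 1 of 5 tested genes was called higher, beside 2.99% of all probe sets tested. The list median log2 change was 0.45 against -0.09 over all probe sets. The called gene was ATERDJ3B, a co-chaperone of the ER chaperone BiP that serves the folding of immune receptors. It read 643, 630.2 and 762 after silwet and 1425, 1474 and 1793 after SA. Every SA array of ATERDJ3B was nearly 2-fold above the highest silwet array or further (log2 change 1.20, SE 0.15, adjusted p = 0.000606). The calreticulin CRT1b (0.50), the calnexin-type AT5G07340 (0.45) and the stress transcription factors BZIP60 (0.30) and BZIP28 (0.10) were not called.

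A list of 27 genes for entry into the ER, signal peptide cleavage, glycosylation and degradation was drawn up after its values had been seen, so its counts are a description. Of 16 tested genes 8 were called higher and 0 lower, beside 2.99% and 3.65% of all probe sets tested, and the median log2 change was 0.67 beside -0.09 over all probe sets. AT3G60540, a Sec61 beta subunit of the protein channel, read 128, 147 and 123 after silwet and 451, 416 and 420.4 after SA (log2 change 1.70, SE 0.25). GFAT, which makes the amino sugar precursor of glycans, read 66.6, 64.3 and 67.6 and 205, 159.8 and 173 (log2 change 1.43, SE 0.20). In both genes the arrays of 1 group lay close together and the groups far apart. Also called were the Sec61 alpha gene AT1G29310 (0.85), the signal peptidase subunits AT1G52600 (0.83) and AT3G05230 (0.73), and DER1 (0.95), OS9 (0.82) and AT2G29070 (0.89) of the degradation of misfolded proteins. Without the replicate block AT3G60540 and GFAT were the only genes of this list to keep their call. Below the threshold as reported were the Sec61 alpha gene AT2G34250 (0.53), the signal peptidase genes AT5G27430 (0.55) and AT2G22425 (0.59), DER2.1 (0.53) and the Sec61 gamma gene AT3G48570, whose 2 probe sets gave 1.02 and 0.61. The remaining uncalled genes were near 0, with AT3G15710 at 0.06, AT1G78720 at 0.03 and DER2.2 at -0.06. The call was lost for AT2G29070 whichever single array was left out (adjusted p up to 0.138), for AT3G05230 without silwet 1, SA 1 or SA 3 (up to 0.112), for AT1G29310 (0.079) and AT1G52600 (0.0727) without silwet 1 or SA 2, for OS9 without silwet 1 or SA 3 (0.0842) and for DER1 without silwet 1 (0.0827).

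Aliphatic glucosinolates are sulfur-containing defence compounds of Brassicaceae made from methionine. Of the 4 tested genes of their synthesis 2 were called lower, beside 3.65% of all probe sets tested, with a list median log2 change of -0.55. Beside UGT74C1 this was BCAT4, the aminotransferase that starts methionine chain elongation, which read 1994, 1353 and 1348 after silwet and 1284, 886 and 991 after SA. Every SA array of BCAT4 lay below every silwet array by a small margin (log2 change -0.56, SE 0.11). BCAT4 was no longer called under median centring or without the replicate block. UGT74B1, which glucosylates the shared precursor (-0.54, SE 0.25), and the glutathione transferase GSTU20 (-0.10, SE 0.20) were not called.

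On the nitrate uptake and assimilation list 3 genes were tested, AT1G22540, AT1G22550 and AT1G22570. All 3 are transporters of the nitrate and peptide family NPF5 and stand side by side in the genome. Of these 2 were called lower, beside 3.65% of all probe sets tested. AT1G22550 read 143, 133 and 103 after silwet and 31.7, 54.0 and 45.8 after SA (log2 change -1.55, SE 0.23). AT1G22570 read 196, 171 and 174 and 56.4, 48.9 and 103 (log2 change -1.45, SE 0.25). For both the groups were apart, and their neighbour AT1G22540 had a smaller value (log2 change -0.51, SE 0.17, not called). Of the abscisic acid, cold and dehydration list 2 of 4 tested genes were called lower, beside the same 3.65%. COR15A, a chloroplast protein that protects membranes in frost, read 2903, 1367 and 1137 and 1328, 411 and 374.1, overlapping, with replicate 1 high in both groups (log2 change -1.49, SE 0.26). The dehydrin COR47 had a log2 change of -0.94 (SE 0.18), while COR15B at -0.64 (SE 0.24) and the dehydrin LTI30 at -0.004 (SE 0.28) were not called. Without the replicate block both transporters kept their call and both cold genes lost it.

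Further families were grouped only after the values were known and are given as a description. Of the B-type methionine sulfoxide reductases, which repair oxidised methionine, 3 of 4 tested were called lower, beside 3.65% of all probe sets tested. MSRB9 read 527, 393 and 656 after silwet and 167, 109 and 313 after SA, and MSRB5 read 459, 179 and 196 and 146, 91.1 and 78.9. Both were lower in every pair (log2 changes -1.53 and -1.31, SE 0.35 and 0.20), MSRB6 changed by -0.97, and MSRB3 at 0.37 was not called. These genes are close relatives, and whether their probes are shared was not tested. On the jasmonate and ethylene response list 1 gene was tested, the defensin PDF1.2, which was not called (log2 change -0.15, SE 0.88). The jasmonate-induced oxygenases inactivate jasmonate. Of 3 tested 2 were called lower, beside the same 3.65%, JRG21 (-1.72) and AT2G38240 (-1.20), with AT5G05600 at -0.86 not called. JRG21 read 81.7, 116 and 368 after silwet and 9.98, 35.7 and 273.9 after SA, so replicate 3 was high in both groups, SA replicate 1 was dim and the groups overlapped. All 3 tested knottin-like trypsin inhibitors of 1 gene cluster were called lower, again beside 3.65%, AT2G43550 (-1.22), AT2G43535 (-0.95) and AT2G43530 (-0.82). None of these genes was called without the replicate block, and JRG21 and AT2G38240 were not called under median centring. With arrays left out the call was lost for MSRB6 without silwet 1, silwet 2, SA 2 or SA 3 (adjusted p up to 0.16), MSRB9 and JRG21 without silwet 1, silwet 2, SA 1 or SA 2 (up to 0.0812 and 0.142), AT2G38240 without any array but silwet 3 (up to 0.208), AT2G43535 without silwet 1, silwet 2 or SA 2 (up to 0.0963) and AT2G43550 without silwet 1 or SA 2 (up to 0.064).

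**Figure D4:**
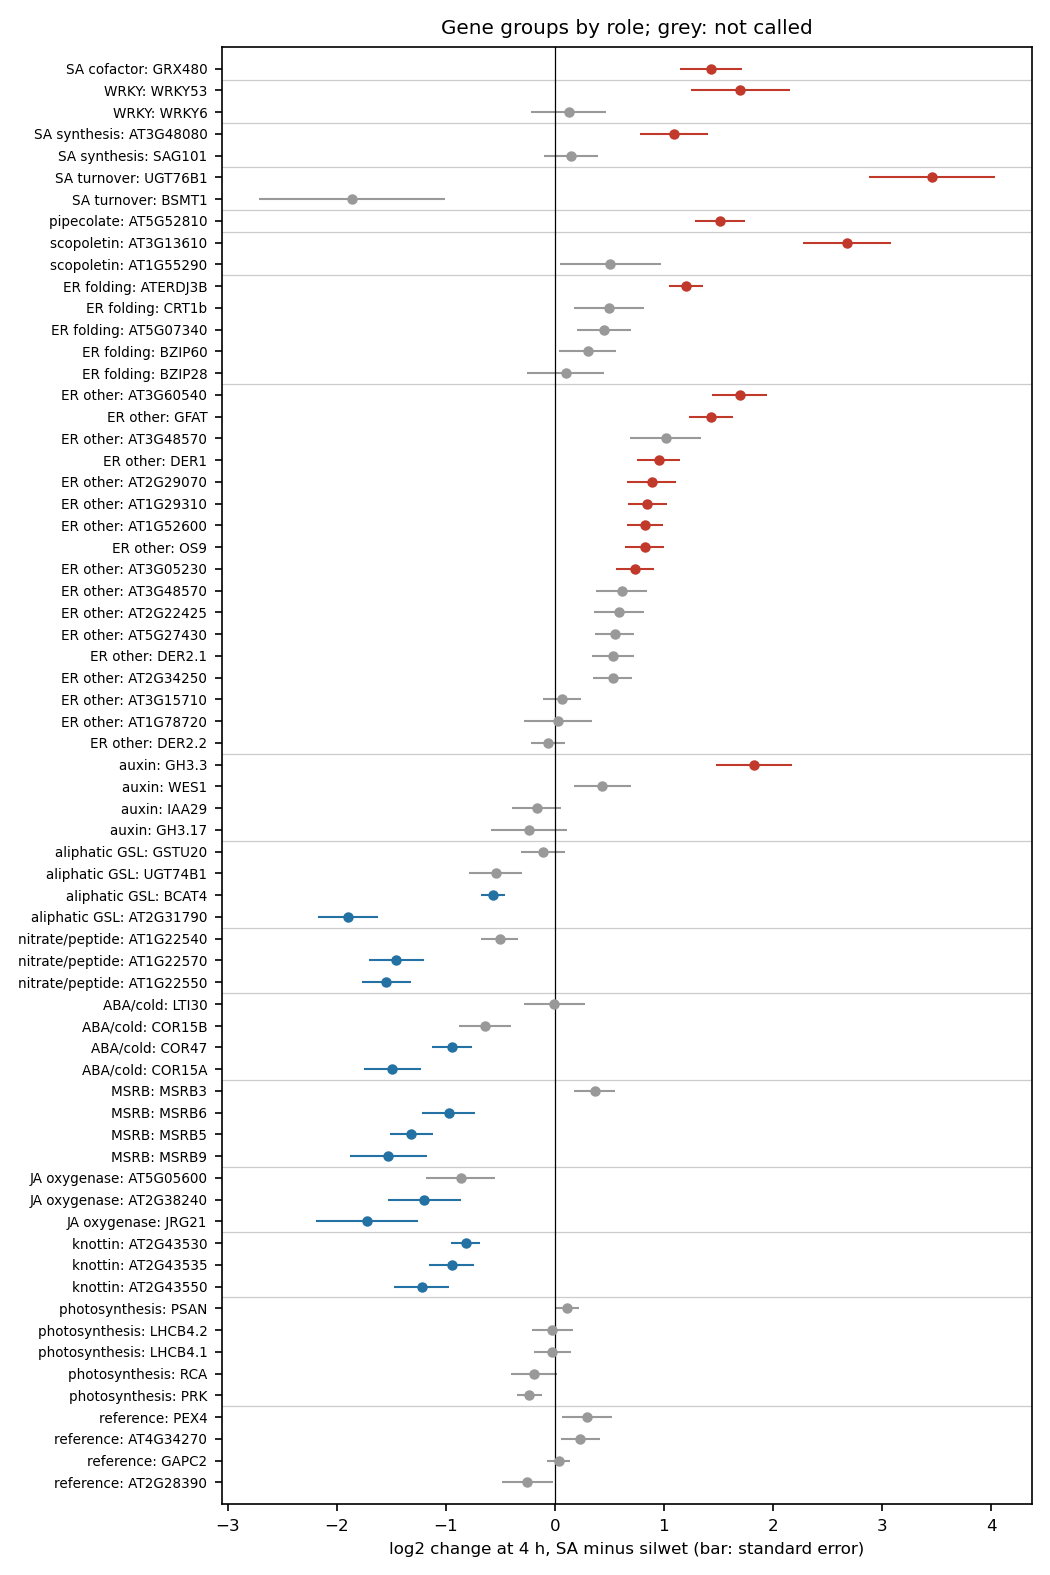
Log2 change at 4 h, SA minus silwet, with its standard error (horizontal axis) for tested genes grouped by role (vertical axis), coloured where called. The ER genes lie mostly above 0, and the aliphatic glucosinolate, NPF5 transporter (nitrate/peptide), cold, MSRB, jasmonate oxygenase and knottin genes lie mostly below it, while no photosynthesis or reference gene is called.

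On the other lists with at least 3 tested genes, no gene was called apart from GH3.3 on the auxin list, where WES1, another GH3 amidosynthetase, had a log2 change of 0.43 (SE 0.26). The 6 tested genes of cell wall growth had log2 changes from -1.02 to 0.12, with a median of -0.42. The 6 glutathione transferases and stress glucosyltransferases ranged from -0.50 to 0.68. The 5 photosynthesis genes ranged from -0.23 to 0.12 and the 4 reference genes from -0.25 to 0.29. The 3 mitochondrial stress genes ranged from -0.17 to 0.57 and the 3 touch and rapid stress genes from -0.84 to -0.04. With 3 arrays per group a p above the threshold does not show that these genes were alike in both groups. Of the lists with 1 or 2 tested genes, those of immune receptors, secretion, redox proteins and the circadian clock had none called, nor was AT1G55290, the other tested gene of the list with F6'H1, which was dim on all silwet arrays.

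The replicate pairs were not equally far apart. For the 15 rising genes the SA minus silwet difference had a median of 2.38 on the log2 scale in replicate 1, 2.34 in replicate 2 and 1.83 in replicate 3, and all 15 were at least 2-fold higher in each pair. For the 15 falling genes, dim values included as read, the medians were -2.06, -2.66 and -1.51, and 13 of 15 were at least 2-fold lower in replicate 3 against all 15 in the other pairs. Over all probe sets tested the standard deviation of the difference was 0.65, 0.72 and 0.56. The same sign in all 3 pairs was seen for 1009 of the 1011 calls, against 51.1% of all probe sets. The calls were made on these same arrays, and the 15 genes each way were also chosen by the same sign in all pairs. Agreement between pairs is therefore a description and no separate support.

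At 28 and 52 h the genes of the 4 h response were, on median, close to their silwet level. The 15 rising genes had log2 changes between -0.30 and 0.52 at 28 h, with a median of 0.06, and a median of -0.01 at 52 h, where the extremes were AT3G28510 and NRT2.5, both dim on most arrays of that time. The 15 falling genes had medians of 0.06 at 28 h and -0.17 at 52 h. Over all 1011 calls the change in the direction of 4 h had a median of -0.05 at 28 h and 0.003 at 52 h. The sign was that of 4 h for 37.5% of them at 28 h and 50.8% at 52 h, against 47.8% and 58.8% of all probe sets. These shares are descriptions.

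The difference between times was tested directly, as the SA effect at 4 h minus the mean SA effect of 28 and 52 h, in the same limma fit. It passed for 366 probe sets (2.41% of those tested), 175 positive (1.15%) and 191 negative (1.26%), and for 23 without the replicate block. The SARD4 gene AT5G52810 went from 1.52 at 4 h to -0.23 at 28 h and -0.08 at 52 h (adjusted p of the difference = 0.00764). ATERDJ3B went from 1.20 to -0.17 and -0.25 (adjusted p of the difference = 0.00182). MSRB9 went from -1.53 to 0.74 and 0.65, with later values above silwet that were not tested singly (adjusted p of the difference = 0.0143). WRKY53 (-0.45 and -0.12 at the later times) did not pass (adjusted p = 0.0741).

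**Figure D5:**
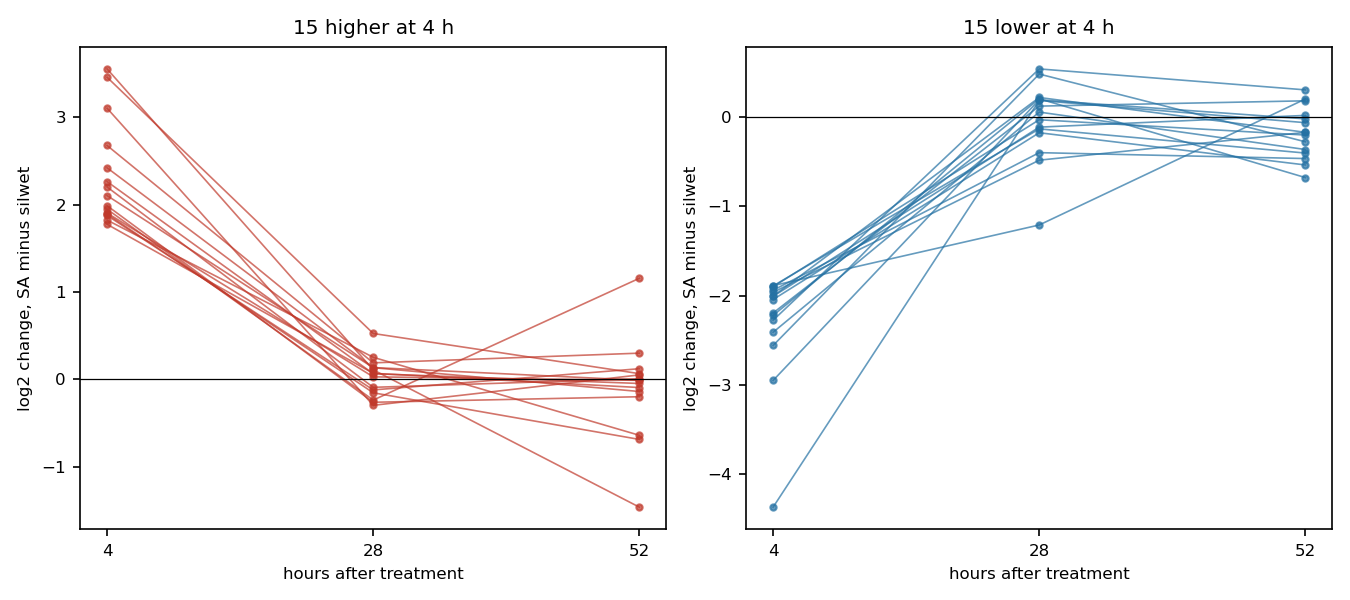
Log2 change, SA minus silwet (vertical axis), at 4, 28 and 52 h after treatment (horizontal axis) for the 15 named genes with the largest rise at 4 h (left) and the 15 with the largest fall (right), 1 line per gene. The genes were chosen at 4 h, and at 28 h their medians are 0.06 in both panels. The lowest line at right is AT3G13672, which was dim on all 6 arrays at 4 h.

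Some of the largest changes were in probe sets left without a gene name. The probe set 245035_at read 198, 149.9 and 343 after silwet and 3043, 3530.4 and 2879 after SA, and 249890_at read 13.8, 29.5 and 50.7 and 487, 302.7 and 502. Their log2 changes were 3.86 and 3.93 (SE 0.32 and 0.37), and both kept their call under all 20 alternatives. Lower were 247600_at and 245275_at. Of these 247600_at was dim on all SA arrays. It read 31.2, 15.2 and 17.9 after silwet, with replicates 2 and 3 dim too. Its bound of at least 1.16-fold lower is carried by silwet replicate 1 alone, and the size of its fall is uncertain. The other, 245275_at, read 227, 284 and 70.4 after silwet and 33.7, 45.1 and 20.9 after SA (log2 change -2.38, SE 0.55). The call of 245275_at was lost without silwet 1, silwet 2, SA 1 or SA 3 (adjusted p up to 0.107).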

How the data were processed

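The authors deposited linear MAS5 signal intensity values in 1 table, named so per the submitters' processing notes. The MAS5 version is not given in the sources used here. Each array's trimmed mean was 100.009 to 100.011, so the arrays had been scaled to 1 level before deposition, and MAS5 leaves dim probe sets noisy on a log scale. From these intensities log2 was taken without an offset or further normalization. A probe set was kept where 3 or more of 18 arrays put it over their own 40th percentile, and 64 control probe sets were left out.

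Limma 3.58.1 in R 4.3.3 (lmFit, eBayes with an intensity trend) took in all 18 arrays, with a mean for each of 6 groups and a block for the replicate number, as the comparison is defined, and adjusted p values are Benjamini-Hochberg over 15216 probe sets. The 12 later arrays add to the estimates of spread and of replicate effects. Arrays of 1 number deviated together from their 4 h group means (correlations of 0.71, 0.18 and 0.67 across probe sets), and 41 of 45 such pairs in the series exceeded 0.1. The pairing comes from the replicate numbers in the labels. Silwet replicate 2 correlated as closely with SA replicate 3 (0.19). No 2 arrays were identical.

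Where a gene was dim on all arrays of a group, its values there were raised to each array's 40th percentile and the fold is a lower bound. A platform annotation gave the gene names, with 13513 probe sets with 1 gene, 503 with several (named by none) and none for 8730, updated through the TAIR10.1 gene table, which matched 13436. Symbols such as SARD4, EDS1B, UGT74C1 and F6'H1 are those of the gene lists. The named genes are the 15 called genes of largest change each way, with 1 gene and the same sign in all pairs, members of the lists, 5 each way for the difference between times, and 2 unnamed probe sets each way. The members and lists were chosen with earlier results of these data known, and the lists for ER entry, MSRB, jasmonate oxygenases and knottins after the values were seen.

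Alternatives were no block, a block within each time, the 6 arrays alone, quantile normalization, median centring, an offset of 5.53, no filter, a 60th percentile filter, no trend, array weights, a 2-fold requirement and arrays or pairs left out. A fit with the 3' over 5' ratio (6 control pairs) as covariate was added after seeing the data. Data were simulated for the 4 h comparison over 15216 genes, with 100 genes changed at each size. The simulation took its replicate effects from the block fit, and its noise was independent and alike on all arrays. With the block the fit recovered 49% of log2 changes of 1 and 93% of changes of 2, with 4 of 146 calls false. Without the block it recovered 19% and 70%. The gain from the block was built in, so it does not say which fit suits the real arrays. Python 3.11.15 and matplotlib 3.10.9 drew the figures.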

Additional observations from a re-analysis of the deposited data

Results flagged for a closer look

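The SA effect differed between times by a test of the difference itself (the effect at 4 h minus the mean effect at 28 and 52 h, limma with the replicate block), which passed for 366 probe sets. Among named genes that passed, the largest positive differences were in AT3G28510 (4.23 on the log2 scale, SE 0.55), AT5G03350 (3.23), UGT76B1 (3.16), AT1G08050 (2.68) and AT3G13610 (2.43). AT1G08050 read 13.5, 57.8 and 144 after silwet and 45.1, 221 and 385 after SA at 4 h. It was not called at 4 h (log2 change 1.70, adjusted p = 0.0513), with values of -0.67 at 28 h and -1.28 at 52 h. Among the named genes that passed with a negative difference were AT1G52000 (-2.66, dim on 1 SA array at 4 h) and AT5G62360 (-2.35). AT3G13672, AT3G15720 and AT5G50335 passed as well, with fitted differences of -4.44, -2.70 and -2.46. All 3 were dim on every SA array at 4 h. Of the silwet arrays at 4 h AT3G13672 was dim on every 1, AT3G15720 on 2 and AT5G50335 on 1. These fitted differences therefore give neither a fold nor an order. The 4 h bound for AT5G50335 was at least 1.33-fold lower. AT3G28510 was dim on 2 silwet arrays at 4 h and on all SA arrays at 52 h. AT1G08050 was dim on 1 silwet array at 4 h, on 1 array of each group at 28 h and on 2 of each group at 52 h. The sizes of the differences of both genes are therefore uncertain.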

How the results depend on the processing

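No call of a named gene changed direction under the 20 alternatives. The count at 4 h (1011 probe sets) was 1745 with a block within each time, 2064 with the 6 arrays alone, 1923 with array weights, 121 without the replicate block and 451 with a 2-fold requirement. It was 1010 after quantile normalization and after median centring, 1099 with an offset, 799 without the filter, 1117 with the 60th percentile filter, 829 without the trend and 713 with the 3' over 5' covariate. Leaving out single arrays gave 255 to 1041, and leaving out both arrays of replicate 1, 2 or 3 gave 400, 118 and 385. The early minus later count (366) was 23 without the replicate block, 645 with a block within each time, 210 without the trend and 1002 with array weights, and 52 to 352 with arrays left out (116 without silwet 1, 111 without silwet 2, 138 without SA 2, 158 without SA 3, and 176, 52 and 144 without both arrays of replicate 1, 2 or 3). Its positive share was 47.8% as reported and 64.4% after median centring. The causes of these shifts were not tested. Of 61 called and named probe sets 38 lost their call without the block, 10 with the covariate and 4 under median centring. Of 63 uncalled list members 22 changed sign under at least 1 alternative. Among those named, the values that changed sign were as follows, with the range over single arrays left out. WRKY6 (0.13) ranged from -0.33 to 0.38, SAG101 (0.15) from 0.014 to 0.33, BZIP28 (0.10) from -0.089 to 0.35, GSTU20 (-0.10) from -0.33 to 0.075, PDF1.2 (-0.15) from -1.02 to 0.52, LTI30 (-0.004) from -0.35 to 0.24, AT1G78720 (0.03) from -0.17 to 0.29, AT3G15710 (0.06) from -0.12 to 0.22 and DER2.2 (-0.06) from -0.16 to 0.061. With array weights WRKY6 became -0.15, SAG101 -0.069 and PDF1.2 0.54. Under median centring GSTU20 became 0.045, LTI30 0.15 and DER2.2 0.086. With the covariate SAG101 became -0.023 and AT1G78720 -0.12. Without both replicate 1 arrays WRKY6 became -0.13, SAG101 -0.0039, PDF1.2 0.77 and AT3G15710 -0.075, without both replicate 2 arrays LTI30 0.088, AT1G78720 -0.0082 and DER2.2 0.034, and without both replicate 3 arrays AT1G78720 -0.28. Changes of 2-fold were often missed at this number of arrays on simulated data, and dim signals give only bounds.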

Other observations

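Genes that neighbour each other on a chromosome were compared as values. Of 2703 neighbouring pairs with both genes tested, 331 had 1 gene called at 4 h, 13 had both called in the same direction and 6 in opposite directions. Over all probe sets tested 2.99% were called higher and 3.65% lower. Whether these pairs exceed what genes apart from each other would give was not tested, nor whether related neighbours share probes. Besides the NPF5 and knottin genes and MSRB5 with MSRB6, the pairs that moved together included AT5G62350 (-0.69 on the log2 scale) with AT5G62360 (-2.19), both invertase and pectin methylesterase inhibitor family proteins, and the SARD4 gene AT5G52810 (1.52) with AT5G52820 (0.68). CRR28, at least 1.23-fold lower, and its neighbour AT1G59710 (0.98) were called in opposite directions. These pairs were chosen after their values were seen.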
